A study of Homo sapiens with 4 samples.

Results

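The genes described here make, interconvert, salvage and break down nucleotides, the building blocks of RNA and DNA, and several of them also activate, bind or degrade 5-fluorouracil, a fluoropyrimidine used against colorectal cancer. They are 37 genes chosen by name from the 29286 genes with a value, and all 37 were matched by symbol. They fall into 5 role groups: 13 for purine synthesis, 5 for pyrimidine synthesis, 4 nucleotide kinases, 8 for deoxynucleotide supply and 7 for salvage and 5-fluorouracil handling. RNA was sequenced from HCT116 cells, a widely used line derived from a human colorectal carcinoma. In 2 libraries the cells carried a lentiviral short hairpin against WDR43 (shWDR43), a gene whose protein acts in the small-subunit processome of the nucleolus, and in the other 2 a control hairpin (shNC). Both groups had 48 h of infection and 3 days of puromycin selection, with no other treatment named in the labels, and the comparison asks how the transcriptome differs after WDR43 knockdown.

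Purine rings are built on phosphoribosyl pyrophosphate up to inosine monophosphate, from which branches lead to AMP and GMP. Pyrimidine rings are built as orotate and turned into UMP, the source of CTP and, through deoxyuridine nucleotides, of thymidylate. Ribonucleotide reductase makes deoxynucleotides, which dividing cells need in S phase, and salvage enzymes return free bases and nucleosides to the pools. 5-fluorouracil enters the same routes: orotate phosphoribosyltransferase, uridine phosphorylase and thymidine phosphorylase help to activate it, thymidylate synthase is its classic target, and dihydropyrimidine dehydrogenase degrades it.

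Of the 37 genes, 3 rose in shWDR43 cells, the thymidine kinase gene TK1, the dNTP hydrolase gene SAMHD1 and the adenine salvage gene APRT, and 0 fell. That is 8.11% higher, against 4.79% of all 13303 tested genes that were called higher and 6.26% called in either direction. The median log2 difference was 0.19 over the 37 genes and 0.05 over all tested genes. All 8 deoxynucleotide genes were higher in both shWDR43 libraries than in both shNC libraries, with 2 passing the test. Over the 37 genes, 31 had a log2 difference above 0, against 58.0% of all tested genes, and 24 were higher in both shWDR43 libraries than in both shNC libraries, against 35.8%. None of the 18 purine and pyrimidine synthesis genes passed the test (limma), and 5 of them had an unadjusted p below 0.05, as had 26.4% of all tested genes. The plots of levels by library and of differences show these groups.

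**Figure D1:**
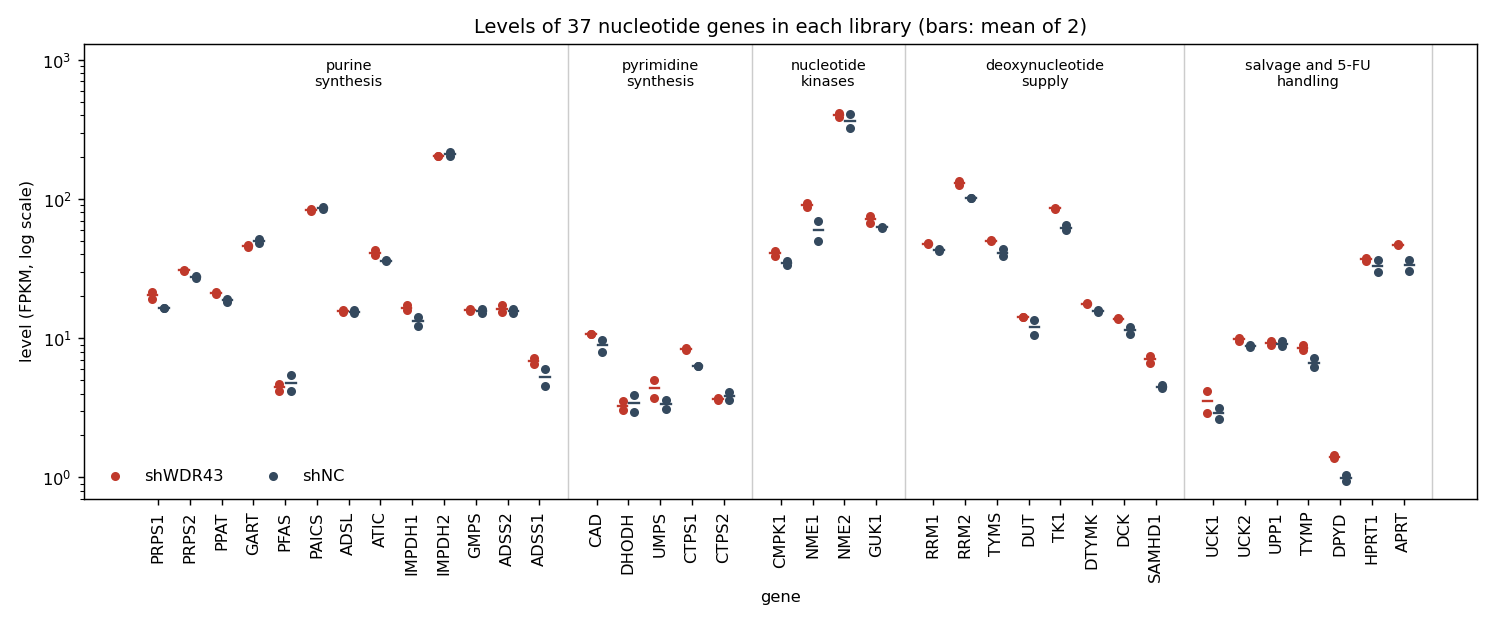
Level of each of the 37 genes in FPKM (y axis, log scale) in the 2 shWDR43 libraries (red, left of each pair) and the 2 shNC libraries (dark, right), by role group, with short bars for the mean of 2 libraries. NME2 and IMPDH2 are the most abundant, DPYD the least, and in the deoxynucleotide group the red points lie above the dark ones for all 8 genes.

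The values were read as FPKM, fragments per kilobase of transcript scaled to the reads mapped in the library, which allows levels of different genes to be set side by side per length. They summed to 411816 and 402393 FPKM in shWDR43 replicates 1 and 2 and to 393582 and 413758 FPKM in shNC replicates 1 and 2, and the read depth behind them is unknown. Whether replicates were grown apart is not said in the labels, and the p-values therefore rest on a spread between libraries that could be technical. Tests used limma on log2(FPKM + 1) with adjustment over all 13303 genes, and an exact permutation test of 1 gene with 2 libraries against 2 cannot go below p = 0.333. WDR43 itself was not analysed here, so the labels were not checked against the targeted gene. The epithelial genes EPCAM, KRT8, KRT18 and KRT19 lay between 155 and 991 FPKM in the 4 libraries. Lower were the epithelial genes CDH1, between 28.9 and 34.1 FPKM, and CLDN3, between 5.02 and 7.36 FPKM. The colon gene CDX2 was between 1.59 and 1.74 FPKM and VIL1 was below 0.1 FPKM. Of 12 fibroblast, blood and endothelial markers with a value, COL1A1 was at 5.69 to 7.80 FPKM and the other 11 were below 1 FPKM in every library. The mitochondrial share of the FPKM sum was 24.6% and 23.9% in shWDR43 and 26.8% and 25.5% in shNC, and its part in the results was not tested.

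Levels of the 37 genes spanned from 1.20 FPKM for DPYD to 383 FPKM for NME2 as means of the 4 libraries. NME2, IMPDH2 and RRM2 were above 100 FPKM, and 6 genes, PFAS, UMPS, CTPS2, DHODH, UCK1 and DPYD, were below 5 FPKM. All 37 passed the filter for testing, 1 FPKM or above in 2 of the libraries, and none did so through 1 group alone. Replicates lay closer together in shWDR43 than in shNC: the SD over the 37 genes of the log2 difference between replicates was 0.125 in shWDR43 and 0.183 in shNC, against 0.177 and 0.245 over all tested genes. Of the 37 genes, 24 were lower in shNC replicate 1 than in shNC replicate 2, and for 11 the gap between the shNC libraries was larger than the difference between the groups. Together they summed to 1656 and 1621 FPKM in shWDR43 and to 1381 and 1520 FPKM in shNC.

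In purine synthesis no gene passed the test. Of its 13 genes, 0 were called by limma and 3 had an unadjusted p below 0.05, as had 26.4% of all tested genes. A positive log2 difference was seen in 9 of them, and in 6 under either other scaling, and the median was 0.05. The sum of the 13 was 522 and 519 FPKM in shWDR43 and 510 and 520.003 FPKM in shNC, and these sums overlapped narrowly. IMPDH2, the most abundant of the 13, weighs most in this sum. IMPDH2, the main inosine monophosphate dehydrogenase gene and the entry to GMP, was at 203 and 202 FPKM in shWDR43 and at 202 and 218 FPKM in shNC. PAICS, whose enzyme has a carboxylase and a synthetase domain, was at 82.3 and 84.2 FPKM in shWDR43 and at 87.0 and 85.3 FPKM in shNC. GART, which encodes a trifunctional enzyme, was at 46.5 and 45.3 FPKM in shWDR43 and at 51.5 and 48.0 FPKM in shNC. GART and PAICS were the only members with both shWDR43 libraries below both shNC libraries, where 21.5% of all tested genes were, and neither passed the test (adjusted p = 0.409 and 0.739). PFAS, the formylglycinamidine synthase gene, had a log2 difference of -0.08 ± 0.14 (SE), with overlapping groups. ADSL, GMPS and ADSS2, genes of the AMP and GMP branches, had log2 differences of 0.02, 0.02 and 0.05, all negative under median-ratio and upper-quartile scaling.

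The genes of purine synthesis that stood highest in shWDR43 were ADSS1, IMPDH1 and PRPS1. ADSS1, the muscle-type adenylosuccinate synthase gene, was at 7.18 and 6.51 FPKM in shWDR43 and at 5.96 and 4.53 FPKM in shNC, a log2 difference of 0.34 ± 0.13 (SE, adjusted p = 0.158). IMPDH1 was at 17.3 and 15.8 FPKM in shWDR43 and at 14.3 and 12.3 FPKM in shNC (adjusted p = 0.117). PRPS1, which makes phosphoribosyl pyrophosphate, was at 19.1 and 21.5 FPKM in shWDR43 and at 16.6 and 16.4 FPKM in shNC (adjusted p = 0.102). In these 3 genes both shWDR43 libraries lay above both shNC libraries, but none passed the test. PRPS2, PPAT and ATIC were separated in the same way, making 6 of the 13 purine genes, against 35.8% of all tested genes. Without shNC replicate 1 ADSS1 was at 0.50 and IMPDH1 at 0.40 (adjusted p = 0.0276 and 0.0321), and without shNC replicate 2 ADSS1 was at 0.17 and IMPDH1 at 0.20 (adjusted p = 0.292 and 0.159). PRPS2, PPAT, the amidotransferase gene of the committed step, and ATIC, the gene of the final steps to inosine monophosphate, had log2 differences of 0.15, 0.17 and 0.19. PPAT and PAICS are divergent neighbours on chromosome 4, PPAT on the minus strand from 56393362 to 56435615 and PAICS on the plus strand from 56435741 to 56464579 (GENCODE release 29, GRCh38). PAICS was 3.97 and 3.91 times PPAT in shWDR43 and 4.75 and 4.47 times PPAT in shNC, so the ratio was lower in both shWDR43 libraries. An E-box at 56435792 to 56435797 lies in the RefSeq promoter windows of both genes.

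Intervals show what size of change could have gone unseen. For 12 of the 13 purine genes the 95% interval of the log2 difference lay within a 1.5-fold change either way. The same held for 29 of all 37 genes and for 77.6% of all tested genes. These intervals are on log2(FPKM + 1), which understates low genes, so for such genes they do not bound the fold of FPKM itself. The exception in the purine group was ADSS1, at 0.03 to 0.64. For IMPDH2 the interval was -0.27 to 0.17, for PAICS -0.24 to 0.14 and for GART -0.30 to 0.07.

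**Figure D2:**
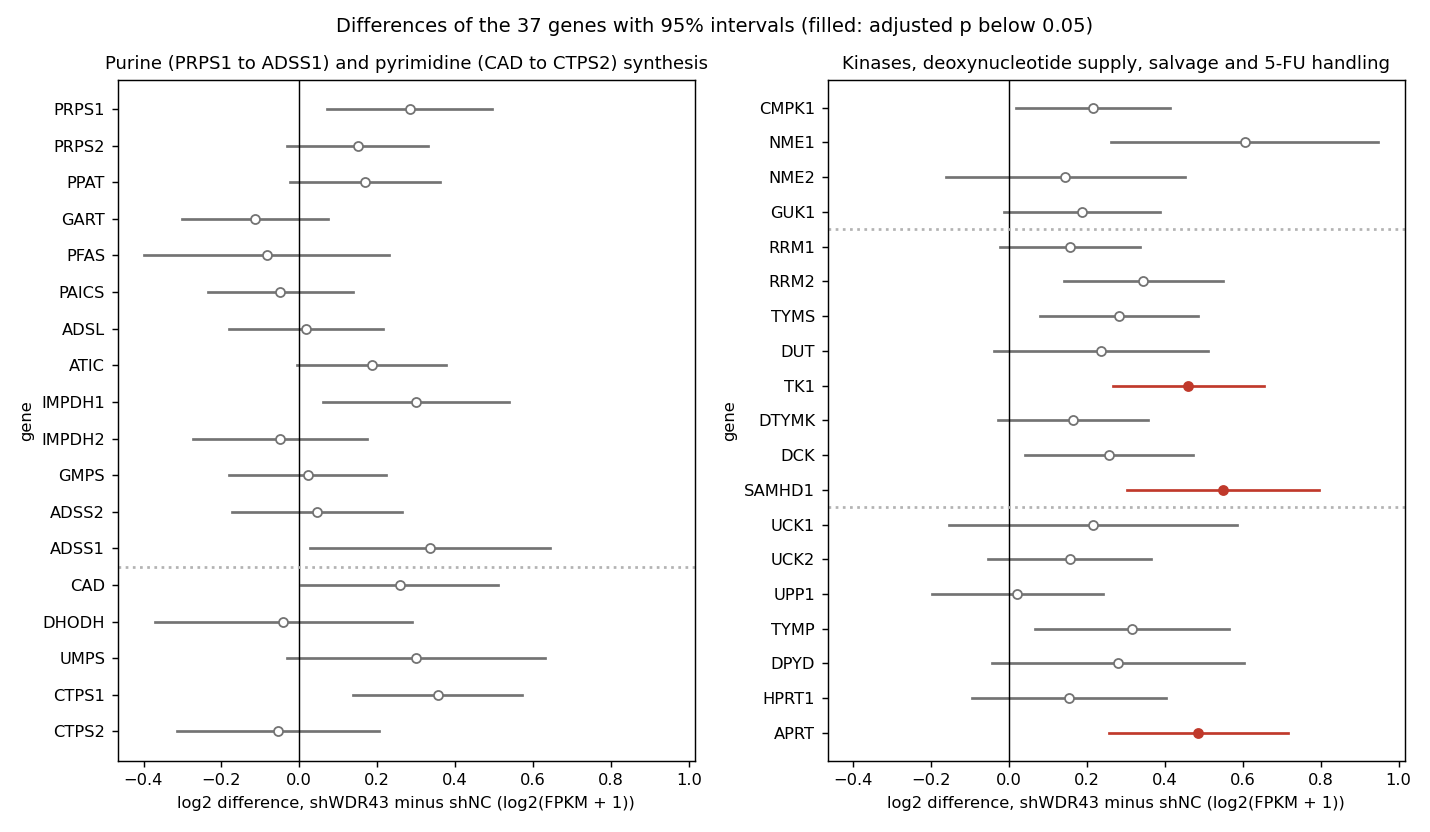
Log2 difference of each gene, shWDR43 minus shNC on log2(FPKM + 1) (x axis), with its 95% interval from limma; dotted lines part the role groups and filled red points passed an adjusted p of 0.05. TK1, SAMHD1 and APRT are filled, and purine synthesis genes scatter on both sides of 0.

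Pyrimidine synthesis had 5 genes at low levels, all under 11 FPKM. Of these, 0 passed limma and 2 had an unadjusted p below 0.05, as had 26.4% of all tested genes. CTPS1, the CTP synthase gene used by proliferating cells, came nearest, at 8.19 and 8.53 FPKM in shWDR43 and at 6.29 and 6.34 FPKM in shNC, a log2 difference of 0.36 ± 0.09 (SE, adjusted p = 0.0643). Its replicates were close and the groups apart, and with each library left out in turn its log2 difference stayed between 0.33 and 0.38. Its paralog CTPS2 was at 3.74 and 3.57 FPKM in shWDR43 and at 3.59 and 4.08 FPKM in shNC. CTPS1 was therefore 2.19 and 2.39 times CTPS2 in shWDR43 and 1.75 and 1.55 times CTPS2 in shNC. CAD, whose protein carries out the opening steps of the pathway, was at 10.8 and 10.7 FPKM in shWDR43 and at 9.71 and 8.01 FPKM in shNC (adjusted p = 0.182). Its log2 difference of 0.26 was 0.38 without shNC replicate 1 (adjusted p = 0.0358) and 0.13 without shNC replicate 2 (adjusted p = 0.326). UMPS, which holds the orotate phosphoribosyltransferase that also converts 5-fluorouracil, was at 3.73 and 5.02 FPKM in shWDR43 and at 3.57 and 3.12 FPKM in shNC (adjusted p = 0.227), with an interval of -0.03 to 0.63. DHODH, the mitochondrial dihydroorotate dehydrogenase gene, had a log2 difference of -0.04 ± 0.14 (SE).

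Among the nucleotide kinases 0 of 4 passed limma and 2 had an unadjusted p below 0.05, as had 26.4% of all tested genes. NME1, a nucleoside diphosphate kinase gene, had a log2 difference that depended more on single libraries than that of the genes that rose. NME1 was at 94.0 and 87.4 FPKM in shWDR43 and at 50.1 and 70.0 FPKM in shNC, so the groups were apart while the shNC libraries differed widely. The log2 difference was 0.61 ± 0.15 (SE, adjusted p = 0.0542), and NME1 passed when any 1 library was left out, at 0.37 without shNC replicate 1 and 0.84 without shNC replicate 2 (adjusted p = 0.0199 and 0.00147). It also passed with the replicate number as a block (adjusted p = 0.0451). Its neighbour NME2 was at 416 and 387 FPKM in shWDR43 and at 325 and 406 FPKM in shNC, and these overlap; without shNC replicate 2 NME2 passed at 0.30 (adjusted p = 0.0233), and without shNC replicate 1 it was at -0.015 (adjusted p = 0.902). A read-through gene, NME1-NME2, covers exons of both on the same strand of chromosome 17, at 73.4 and 71.4 FPKM in shWDR43 and at 69.1 and 59.5 FPKM in shNC, so reads cannot be assigned among them with certainty. The sum of NME1 and the read-through was 167 and 159 FPKM in shWDR43 and 119 and 130 FPKM in shNC, and that of all 3 was 584 and 546 FPKM in shWDR43 and 444 and 535 FPKM in shNC. GUK1, the guanylate kinase gene, and CMPK1, the UMP and CMP kinase gene, had log2 differences of 0.19 ± 0.09 and 0.22 ± 0.08 (SE).

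Deoxynucleotide supply was the group in which every gene was higher, in each shWDR43 library than in each shNC library, 8 of 8 against 35.8% of all tested genes. Its median log2 difference was 0.27, and all 8 stayed positive under each of 12 alternative analyses. TK1, the S-phase thymidine kinase gene (chromosome 17, 78174075 to 78187233, minus strand), was at 86.4 and 85.1 FPKM in shWDR43 and at 59.7 and 64.5 FPKM in shNC. Replicates of each group lay close beside the gap between groups, and TK1 rose 1.38-fold, a log2 change of 0.46 ± 0.08 (SE, adjusted p = 0.0301). SAMHD1, whose enzyme hydrolyses deoxynucleoside triphosphates (chromosome 20, 36889773 to 36951901, minus strand), was at 6.59 and 7.46 FPKM in shWDR43 and at 4.61 and 4.35 FPKM in shNC. It rose 1.57-fold, a log2 change of 0.55 ± 0.11 (SE, adjusted p = 0.0333). TK1 did not pass under median-ratio scaling (adjusted p = 0.0528) or with the replicate block (adjusted p = 0.0502). Nor did TK1 without shWDR43 replicate 1 or 2 (adjusted p = 0.147 and 0.113), nor SAMHD1 without shWDR43 replicate 2 (adjusted p = 0.150), while the log2 differences without 1 library stayed between 0.40 and 0.63.

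RRM2, the small subunit gene of ribonucleotide reductase, was at 126 and 135 FPKM in shWDR43 and at 102 and 102 FPKM in shNC, a log2 difference of 0.34 ± 0.09 (SE, adjusted p = 0.0599). With each library left out in turn, the log2 difference of RRM2 stayed between 0.29 and 0.40. The large subunit gene RRM1 was at 47.5 and 48.2 FPKM in shWDR43 and at 42.0 and 43.7 FPKM in shNC (adjusted p = 0.243). RRM2 was thus 2.64 and 2.80 times RRM1 in shWDR43 and 2.43 and 2.34 times RRM1 in shNC. TYMS, the thymidylate synthase gene and target of 5-fluorouracil (chromosome 18, 657604 to 673578, plus strand), was at 49.7 and 50.8 FPKM in shWDR43 and at 38.8 and 43.6 FPKM in shNC. The groups did not overlap, and the log2 difference of 0.28 ± 0.09 (SE, interval 0.08 to 0.49) did not pass (adjusted p = 0.0927). It was 0.36 without shNC replicate 2 (adjusted p = 0.0117) and 0.20 without shNC replicate 1 (adjusted p = 0.0854). ENOSF1 overlaps TYMS on the opposite strand at 12.1 and 12.4 FPKM in shWDR43 and at 13.1 and 12.8 FPKM in shNC, and since no source used here gives the strand setting of the counting, the level of TYMS is uncertain. DCK, the deoxycytidine kinase gene, and DUT, the dUTPase gene that keeps uracil and fluorouracil out of DNA, had log2 differences of 0.26 ± 0.09 and 0.24 ± 0.12 (SE), and both depended on the shNC library kept. Without shNC replicate 2 DCK was at 0.33 and DUT at 0.40 (adjusted p = 0.0345 and 0.0189), and without shNC replicate 1 DCK was at 0.18 and DUT at 0.074 (adjusted p = 0.182 and 0.582). DTYMK, the thymidylate kinase gene, had a log2 difference of 0.16 ± 0.08 (SE, adjusted p = 0.250).

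S-phase genes moved with this group. Of 15 listed for context, 8 rose and 0 fell, against 4.79% of all tested genes called higher, and the median log2 difference was 0.48. All 15 were higher in both shWDR43 libraries than in both shNC libraries, against 35.8% of all tested genes. Among them were CCNE1, the cyclin E1 gene, at 12.0 and 11.9 FPKM in shWDR43 and at 5.75 and 5.24 FPKM in shNC, and MCM4 and MCM6, which encode parts of the replicative helicase, at a log2 change of 0.55 each. In bulk RNA, more cells in S phase and more mRNA per cell cannot be told apart, and the part of the cell cycle in the deoxynucleotide result was not tested. CDKN1A, the p21 gene that restrains S-phase entry, was at 239 and 229 FPKM in shWDR43 and at 73.8 and 75.7 FPKM in shNC (adjusted p = 0.000865). MYC, known to drive many nucleotide genes, had a log2 difference of 0.07 ± 0.10 (SE). Of 8 MYC target genes listed for context 0 passed limma and 2 had an unadjusted p below 0.05, as had 26.4% of all tested genes.

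Promoter sequence was looked at for the members that rose and for RRM2 and TYMS, the reductase subunit gene and the drug-target gene, which did not pass. RefSeq windows of 250 bases before to 50 after a start were searched on both strands for CCAAT, for the E-box CACGTG and for the E2F-type words TTTCCCGC, TTTCGCGC, TTTGCCGC and TTTGGCGC, with 35 of 37 genes matched. CCAAT occurred in 5 of the 8 deoxynucleotide genes, TK1, SAMHD1, RRM1, RRM2 and DTYMK, and in 12 of 35 members, against 39.7% of 27305 genes. E2F-type words occurred in the other 3, TYMS, DUT and DCK, and in 5 of 35 members, against 3.99% of genes, and the E-box in 6 of 35, against 8.77%. The sequences of GRCh38.p14 follow 5′ to 3′ on the gene's strand. Capitals mark CCAAT or its complement ATTGG in TK1 (chr17:78187003-78187302, minus strand, the RefSeq start of 2 that holds it), SAMHD1 (chr20:36951659-36951958, minus strand) and RRM2 (chr2:10122489-10122788, plus strand), and the E2F-type word in TYMS (chr18:657403-657702, plus strand), where it reads GCGGGAAA. None of these words is in the APRT window (chr16:88811879-88812178, minus strand).
TK1: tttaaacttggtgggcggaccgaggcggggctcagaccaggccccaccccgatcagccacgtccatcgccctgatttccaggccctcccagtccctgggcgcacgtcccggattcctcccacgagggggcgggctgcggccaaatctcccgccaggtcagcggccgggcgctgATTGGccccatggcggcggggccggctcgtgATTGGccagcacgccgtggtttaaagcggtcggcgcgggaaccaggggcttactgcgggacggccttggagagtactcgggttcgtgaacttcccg
SAMHD1: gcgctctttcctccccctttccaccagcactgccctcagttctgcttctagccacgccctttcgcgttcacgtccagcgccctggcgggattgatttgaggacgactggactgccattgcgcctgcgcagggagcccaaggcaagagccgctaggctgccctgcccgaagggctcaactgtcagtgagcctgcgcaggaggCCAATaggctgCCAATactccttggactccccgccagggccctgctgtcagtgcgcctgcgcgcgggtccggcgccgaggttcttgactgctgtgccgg
RRM2: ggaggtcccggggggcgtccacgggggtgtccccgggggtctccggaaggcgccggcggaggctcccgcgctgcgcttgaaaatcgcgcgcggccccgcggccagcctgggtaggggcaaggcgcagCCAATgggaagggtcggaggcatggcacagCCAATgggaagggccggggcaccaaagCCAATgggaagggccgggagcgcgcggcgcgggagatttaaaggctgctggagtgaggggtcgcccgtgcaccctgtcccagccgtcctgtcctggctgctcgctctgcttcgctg
TYMS: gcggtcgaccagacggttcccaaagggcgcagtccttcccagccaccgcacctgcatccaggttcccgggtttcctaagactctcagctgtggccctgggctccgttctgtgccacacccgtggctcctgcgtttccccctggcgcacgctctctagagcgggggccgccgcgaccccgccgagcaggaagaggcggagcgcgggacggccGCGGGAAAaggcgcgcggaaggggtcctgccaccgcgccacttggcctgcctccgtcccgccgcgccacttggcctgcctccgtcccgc
APRT: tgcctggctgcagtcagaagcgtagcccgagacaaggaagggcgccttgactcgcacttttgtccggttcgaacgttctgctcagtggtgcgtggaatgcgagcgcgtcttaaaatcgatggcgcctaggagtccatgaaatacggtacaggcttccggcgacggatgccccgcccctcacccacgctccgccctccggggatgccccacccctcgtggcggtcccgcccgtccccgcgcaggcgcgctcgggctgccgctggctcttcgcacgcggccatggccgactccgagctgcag
The printed windows of TK1 and SAMHD1 each hold CCAAT in 2 places and that of RRM2 in 3. In RRM2 the first bases are 123, 93 and 66 before the start. RRM2 also has 2 RefSeq starts, and the window with more CCAAT is printed. Its other window holds CCAAT with a first base 249 before that start. These matches are a description of letters and not of binding.

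Salvage and 5-fluorouracil handling had 1 of 7 genes that rose, APRT, against 4.79% of all tested genes called higher. All 7 had a positive log2 difference, against 58.0% of all tested genes, and their median was 0.22. UPP1, at 0.021, was negative under both other scalings and without shWDR43 replicate 1 or shNC replicate 2. APRT, the adenine phosphoribosyltransferase gene (chromosome 16, 88809339 to 88811944, minus strand), was at 46.5 and 47.3 FPKM in shWDR43 and at 30.4 and 36.2 FPKM in shNC. The shWDR43 libraries nearly coincided and lay above both shNC libraries, a 1.41-fold rise with a log2 change of 0.49 ± 0.10 (SE, adjusted p = 0.0354). It did not pass without shWDR43 replicate 1 or 2 (adjusted p = 0.0651 and 0.0775) or under either other scaling (adjusted p = 0.0606 and 0.0529). HPRT1, which salvages hypoxanthine and guanine, was at 37.8 and 35.9 FPKM in shWDR43 and at 29.9 and 36.5 FPKM in shNC. The groups overlap for HPRT1, whose log2 difference was 0.29 without shNC replicate 2 (adjusted p = 0.0308) and 0.013 without shNC replicate 1 (adjusted p = 0.918). APRT was 1.23 and 1.32 times HPRT1 in shWDR43 and 1.02 and 0.993 times HPRT1 in shNC.

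Of the genes that act on 5-fluorouracil itself, none passed the test. TYMP, the thymidine phosphorylase gene, was at 8.16 and 8.91 FPKM in shWDR43 and at 6.18 and 7.16 FPKM in shNC, a log2 difference of 0.32 ± 0.11 (SE, adjusted p = 0.114). It was 0.41 without shNC replicate 2 (adjusted p = 0.0310) and 0.22 without shNC replicate 1 (adjusted p = 0.173). UPP1, the uridine phosphorylase gene, was at 9.59 and 8.99 FPKM in shWDR43 and at 9.50 and 8.78 FPKM in shNC, with an interval of -0.20 to 0.24. TYMP was 0.851 and 0.990 times UPP1 in shWDR43 and 0.650 and 0.815 times UPP1 in shNC. DPYD, the gene of the catabolic dihydropyrimidine dehydrogenase, lay at the filter, at 1.37 and 1.44 FPKM in shWDR43 and at 0.936 and 1.03 FPKM in shNC (adjusted p = 0.245). TYMS was 36.2 and 35.3 times DPYD in shWDR43 and 41.4 and 42.2 times DPYD in shNC, so target mRNA exceeded catabolic mRNA widely in every library. The uridine-cytidine kinase genes UCK1 and UCK2 had log2 differences of 0.22 ± 0.16 and 0.15 ± 0.09 (SE), and TMCO1 and POMT1 overlap UCK2 and UCK1 on the opposite strand, so both levels are uncertain. Exons of GART, DCK and TYMP are likewise shared with another gene that passed the filter.

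**Figure D3:**
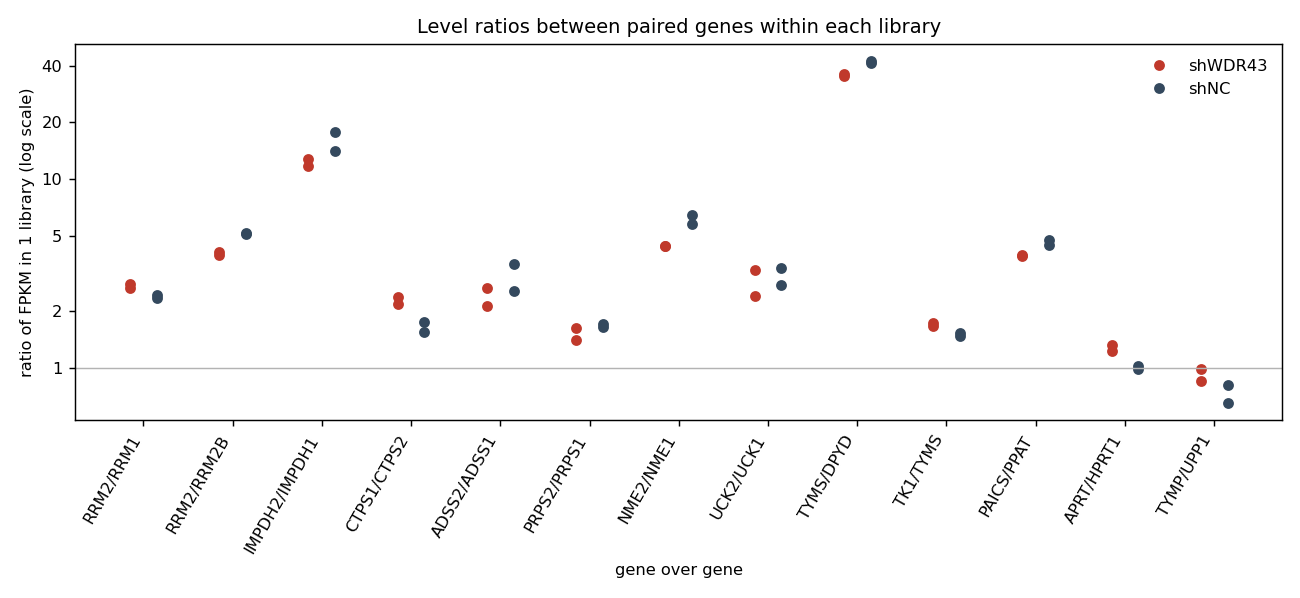
Ratio of the FPKM of one gene to that of another within each library (y axis, log scale), for 13 pairs named under the axis, with the 2 shWDR43 libraries in red on the left and the 2 shNC libraries in dark on the right; the line marks a ratio of 1. RRM2 over RRM2B and NME2 over NME1 lie lower in shWDR43, and APRT over HPRT1 lies at about 1 in shNC and above it in shWDR43. The groups overlap for ADSS2 over ADSS1 and for UCK2 over UCK1, and how often other gene pairs separate was not tested.

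More genes of nucleotide and folate metabolism rose outside the 37. Of 55 others listed, 51 had a value, 48 were tested, 8 rose and 0 fell, against 4.79% of all tested genes called higher. Their median log2 difference was 0.13, against 0.05, and 32 of 48 were positive, against 58.0% of all tested genes. RRM2B, the stress-inducible small subunit gene of ribonucleotide reductase, was at 31.5 and 32.9 FPKM in shWDR43 and at 19.8 and 20.1 FPKM in shNC, a 1.62-fold rise (log2 change 0.67 ± 0.08, SE, adjusted p = 0.0106). RRM2B passed whichever 1 library was left out. RRM2 was thereby 3.99 and 4.09 times RRM2B in shWDR43 and 5.18 and 5.10 times RRM2B in shNC, a lower ratio with both genes higher. SHMT1, the cytosolic serine hydroxymethyltransferase gene of folate metabolism, was at 12.7 and 13.0 FPKM in shWDR43 and at 8.73 and 8.27 FPKM in shNC, a 1.51-fold rise (adjusted p = 0.0244), and did not pass without shWDR43 replicate 2 (adjusted p = 0.0590).

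In purine breakdown and salvage, GDA, the guanine deaminase gene, was at 15.6 and 15.1 FPKM in shWDR43 and at 9.51 and 9.15 FPKM in shNC (adjusted p = 0.0149). PNP, the purine nucleoside phosphorylase gene, was at 22.8 and 26.5 FPKM in shWDR43 and at 16.9 and 17.4 FPKM in shNC (adjusted p = 0.0343), and did not pass without shWDR43 replicate 2 (adjusted p = 0.190) or under median-ratio or upper-quartile scaling (adjusted p = 0.0536 and 0.0514). These were joined by the kinase genes AK1 and NME3, at log2 changes of 0.67 and 0.60, the 1.35-fold rise of NT5E, an ecto-5′-nucleotidase gene, and the 1.40-fold rise of DCTPP1, which removes modified dCTP. MAPK8IP3 overlaps NME3 on the opposite strand and a gene at 2.02 to 5.34 FPKM overlaps AK1 on the same strand, so the levels of NME3 and AK1 are uncertain, as are those of SHMT1 and DCTPP1, which share exons with SMCR8 and ZNF771 on the opposite strand. NT5E, with an adjusted p of 0.0492, was the closest to the threshold, and neither NT5E nor DCTPP1 passed without shWDR43 replicate 1 (adjusted p = 0.0962 and 0.106) or 2 (adjusted p = 0.310 and 0.142). Under median-ratio scaling NT5E and DCTPP1 did not pass either (adjusted p = 0.0781 and 0.0641), nor under upper-quartile scaling (adjusted p = 0.0784 and 0.0620). CDA, SLC29A1 and FPGS were named whatever their result, and none of these 3 passed. CDA, the cytidine deaminase gene, had a log2 difference of 0.29 ± 0.09 (SE, adjusted p = 0.0828) and SLC29A1, a nucleoside transporter gene, of 0.28 ± 0.08 (SE, adjusted p = 0.0849). FPGS, which retains folates in the cell by adding glutamates, had a log2 difference of 0.10 (adjusted p = 0.528).

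**Figure D4:**
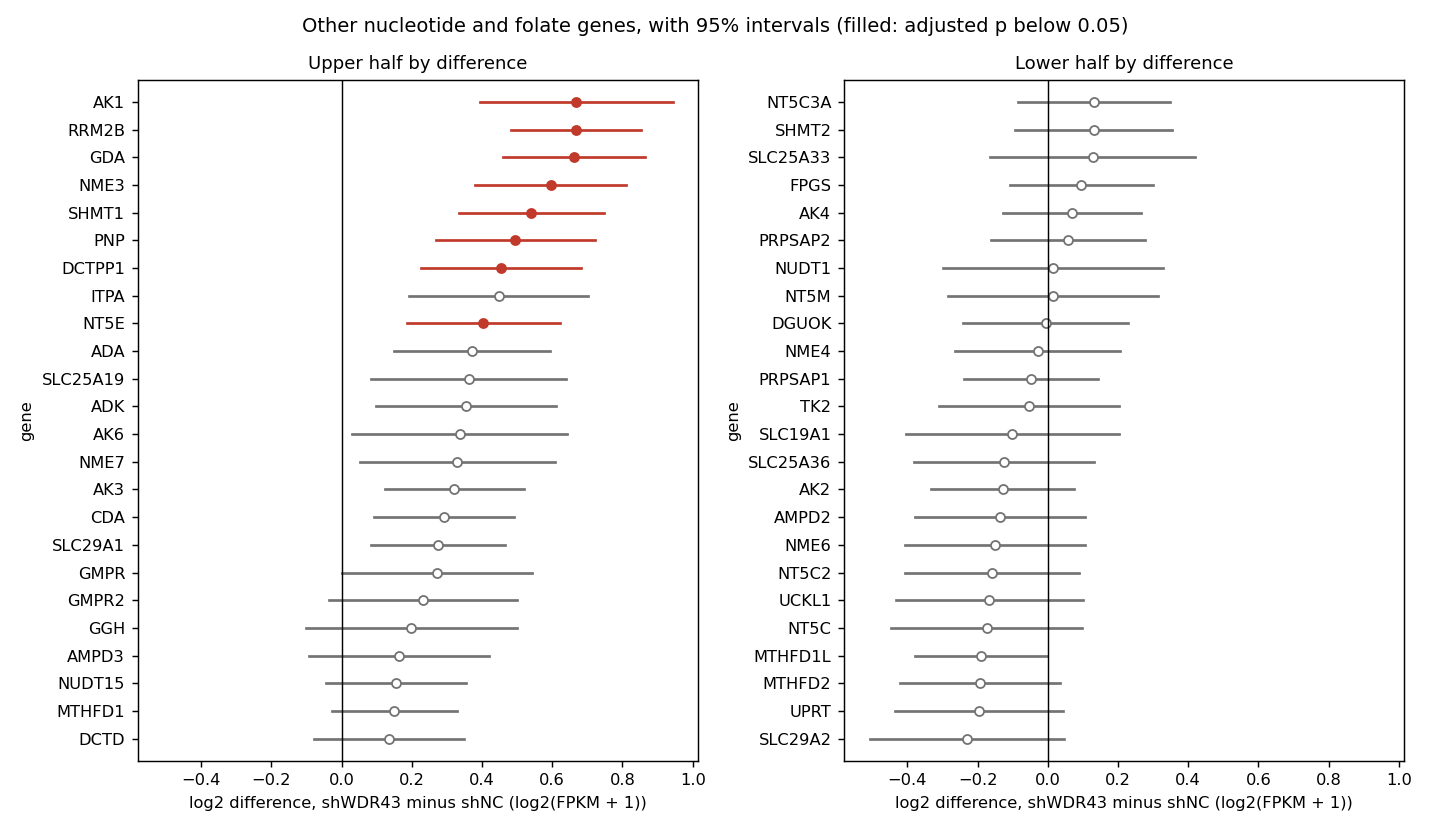
Log2 difference, shWDR43 minus shNC (x axis), with 95% intervals from limma for the 48 other nucleotide and folate genes tested, sorted by difference over both panels; filled red points passed an adjusted p of 0.05. The 8 filled points lie between 0.40 and 0.67, and no gene passed below 0.

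Which of the 37 genes passed depended on the library left out, as it did over all genes. Member counts below are out of 37 unless another number is given. Percentages are shares of all tested genes called higher, so counts and percentages are unlike measures. With all 4 libraries as deposited, the 3 members are 8.11% of the 37, against 4.79%. Without shNC replicate 2, 12 members passed, all higher, against 13.5% of all tested genes called higher, and without shNC replicate 1, 8 did, against 9.17%. Leaving out shWDR43 replicate 1 gave 2, against 1.94%, and leaving out shWDR43 replicate 2 gave 1, against 2.45%. Under median-ratio scaling 1 member passed, SAMHD1, against 2.22%, and under upper-quartile scaling 2 passed, SAMHD1 and TK1, against 2.46%. With a pseudocount of 0.1, and with robust settings off, TK1, SAMHD1 and APRT passed, against 4.66% and 4.19%. A filter at 5 FPKM left 31 members to test and added NME1, RRM2 and CTPS1, so that 6 of the 31 passed, against 9.34%. Under no filter 0 passed, against 0.0557%. With the replicate number as a block 3 passed, SAMHD1, APRT and NME1, against 3.1%, and with the numbers crossed 7 passed, against 10.3%. Over all tested genes the split of higher to lower calls was 637 to 196 as deposited, 295 to 221 under median-ratio scaling and 327 to 287 under upper-quartile scaling.

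**Figure D5:**
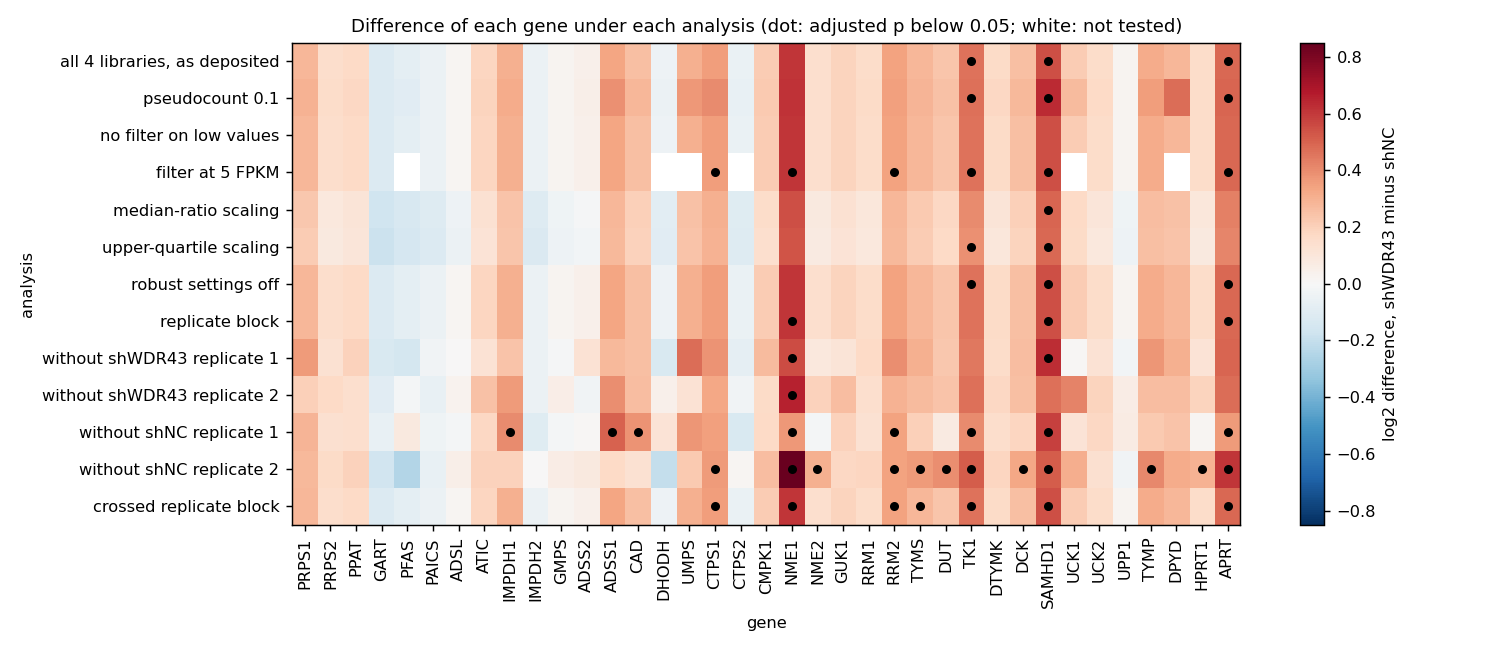
Log2 difference of each of the 37 genes (columns), shWDR43 minus shNC, under the analysis of all 4 libraries as deposited and 12 alternatives (rows), in color; a dot marks an adjusted p below 0.05 and white marks a gene not tested. SAMHD1 has a dot in 10 of 12 alternatives and TK1, APRT and NME1 in 7 each, though NME1 has none in the analysis as deposited. Without filter on low values no gene has one.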

How the data were processed

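Per the labels' protocols, each of the 4 libraries, 2 shWDR43 and 2 shNC, took 1 ug of total RNA into a TruSeq kit. GRCh38 and the tools HISAT2, RSEM, edgeR, Trimmomatic, FastQC and CASAVA 1.8 are named in the submitters' processing notes, without role or order. Annotation release and strand setting: not given in the sources used here. From their sums, the authors' deposited values were taken to be FPKM, and TPM over part of the genes cannot be told apart from it. Of 29286 genes, 29170 had a symbol; 1 blank entry was left out. The fullest 1% window of low-value ratios between libraries held 1.01% of genes, so whole reads were not recovered and depth is unknown.

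With limma 3.58.1 in R 4.3.3, log2(FPKM + 1) was fitted by group for the 13303 genes that reached 1 FPKM in 2 or more libraries, with trend and robust moderation; p-values are two-sided and Benjamini-Hochberg adjusted, with a threshold of 0.05. Log2 differences on this scale understate low genes; folds are ratios of mean FPKM. The script was tested on simulated data. Members, lists and alternatives were chosen with earlier results of these data known. All members are named; of other pathway genes, RRM2B, FPGS, SLC29A1 and CDA, and those that passed, up to 6 in each direction by p, with the remaining 2 named after their values were seen; of each context list up to 3 genes. Some genes are not reported here. Promoter sequences are from RefSeq, GRCh38.p14, and positions from GENCODE release 29. With 2 residual degrees of freedom the fit borrows its spread across genes. Same-numbered replicates deviated with a correlation of -0.147 across genes. With 2 libraries per group this value cannot decide whether a number marks a shared culture or day. Python 3.11.15, pandas 2.3.3 and matplotlib 3.10.9 made tables and figures.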

Additional observations from a re-analysis of the deposited data

How the results depend on the processing

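Settings tried in turn were a filter at 5 FPKM, none at all, a pseudocount of 0.1, median-ratio and upper-quartile scaling, robust settings off, a replicate block, each library left out, and a crossed block added after the data were seen. Without a filter 17 genes were called over all tested, 0 of 37 members and 0 other pathway genes, with 26938 genes in the adjustment. With a filter at 5 FPKM 6 of the 31 members tested passed, all higher, against 9.34% of all 8428 genes tested there. Median-ratio scaling called 516 genes and 1 member, and it and upper-quartile scaling each called 5 other pathway genes. Leaving out a library gave 391 to 2610 genes, 1 to 12 members and 4 to 16 other pathway genes; such a fit assumes that the lone library varies like the other group. The replicate block called 563 genes, 3 members and 6 other pathway genes, and it gained NME1 and lost TK1 (adjusted p = 0.0502). The labels do not say that a number marks a shared culture. The crossed block called 1954 genes, 7 members and 13 other pathway genes. Of 438 member values under alternatives, 382 kept direction and side of the threshold, 24 newly passed, 12 no longer passed and 20 changed sign, none of these 20 in a gene that passed with all 4 libraries as deposited, though NME2 passed without shNC replicate 2. Under median-ratio scaling ADSL was -0.040, GMPS -0.035, ADSS2 -0.010 and UPP1 -0.033, and under upper-quartile scaling these were -0.051, -0.045, -0.021 and -0.043. Over the libraries left out, the log2 difference ran from -0.018 to 0.050 for ADSL, -0.019 to 0.063 for GMPS, -0.032 to 0.12 for ADSS2, -0.030 to 0.072 for UPP1, -0.20 to 0.12 for DHODH, -0.25 to 0.080 for PFAS, -0.015 to 0.30 for NME2, -0.10 to 0.0052 for IMPDH2 and -0.13 to 0.020 for CTPS2; the cause was not tested. Read depth is unknown, so no counting error is given for low genes such as DPYD.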
